A study of Rattus norvegicus with 16 samples.

Results

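The tissue that had filled an osteotomy left empty was compared with the bone bordering it in the same limb. The comparison holds 8 of the 16 libraries of the series, chosen by their titles: 4 of pre-fibrous non-union tissue (PFNU) and 4 of bone next to the empty defect (BNED), and the shared letter in the titles pairs 1 PFNU with 1 BNED library of the same Sprague-Dawley rat, numbered 1 to 4 here. Each rat had a surgical cut through a bone, called an osteotomy, on both sides of the body, and both were fixed with a plate. The defect of 1 limb stayed empty and gave PFNU and BNED. The defect of the other limb was filled with a spacer of PMMA, a bone cement, which is the first stage of the Masquelet procedure for large bone defects, and gave the other 8 libraries, 4 of the induced membrane that forms around the cement (IM) and 4 of the bone beside the spacer. All tissues were taken 4 weeks after surgery. Every rat carried both operations, every limb was cut and plated, and no unoperated bone was among the samples, so the 2 groups are 2 tissues of an injured limb and not an injured and a healthy bone. Age, sex, which bone was cut and how far from the defect the bone piece was taken are not given in the sources used here. Each library holds polyadenylated RNA of a whole tissue piece from 1 rat.

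A defect that does not bridge fills with fibrous tissue, whose fibroblasts lay down collagens and elastic fibres and which vessels with a smooth muscle coat supply. Bone is made by osteoblasts, which secrete type I collagen and become osteocytes once enclosed in it, and is removed by osteoclasts, which come from the blood cell line of macrophages. The cavity of a rat limb bone holds red marrow, where erythroid cells, granulocytes, megakaryocytes and B cells form and divide, held by stromal cells that make CXCL12. Skeletal muscle surrounds the bone, and its fast and slow fibres are told apart by their own myosins and troponins.

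The 8 libraries held 41558440 to 72224200 counts, and all values below are CPM, counts per 1000000 counts of the library, on library sizes scaled by the trimmed mean of M values (TMM), so levels compare a gene between libraries and not 1 gene with another. Across them the first principal component of log2 CPM took 65.3% of the variance and separated the groups, with PFNU at -75.5, -72.0, -49.7 and -69.1 for rats 1 to 4 and BNED at 64.1, 34.1, 76.3 and 91.7. PFNU of rat 3 and BNED of rat 2 thus lay nearest the other group. PFNU of rat 3 held the least RNA of the muscle fibre lists among the PFNU libraries (7.80% of counts against 10.5% to 19.1%) and the most of the osteoblast list (4.48% against 1.53% to 2.51%), whereas BNED of rat 2 held the most muscle RNA of the BNED libraries (5.69% against 0.483% to 3.57%) and the least osteoblast RNA (3.32% against 5.20% to 8.15%). The order within PFNU did not follow muscle RNA: rat 1 lay furthest out with 10.5%, beyond rats 2 and 4 with 18.1% and 19.1%. What sets the positions was not tested. Of 12857 genes tested with edgeR's quasi-likelihood test, 3884 (30.2%) differed at a Benjamini-Hochberg adjusted p under 0.05, 1928 (15.0%) higher in PFNU and 1956 (15.2%) lower. The 4 libraries of each group did not overlap for 5131 genes (39.9%). At least 8-fold differences were more often losses than gains, 260 genes (2.02%) against 120 (0.933%). The balance of the 2 directions depends on the scaling: with total counts and no TMM factors the median log2 fold change of all genes moved from 0.04 to -0.21, and 1092 genes were higher and 2624 lower, so that 29.4% of the called genes were higher in place of 49.6%. Without PFNU of rat 3 and BNED of rat 2 together, 3881 genes passed. In the text "higher", "lower", "rose" and "fell" refer to PFNU relative to BNED in this test, a log2 fold change is PFNU minus BNED and is followed by ± its standard error (SE), and each count of a list is to be read against those 15.0% and 15.2%. The replicates are 4 rats. The test takes its spread from all 16 libraries of the 4 tissues, without a term for rat, so the SE is not that of the 4 paired differences. With the 8 libraries alone 5443 genes passed, and with a block for rat added 4898.

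**Figure D1:**
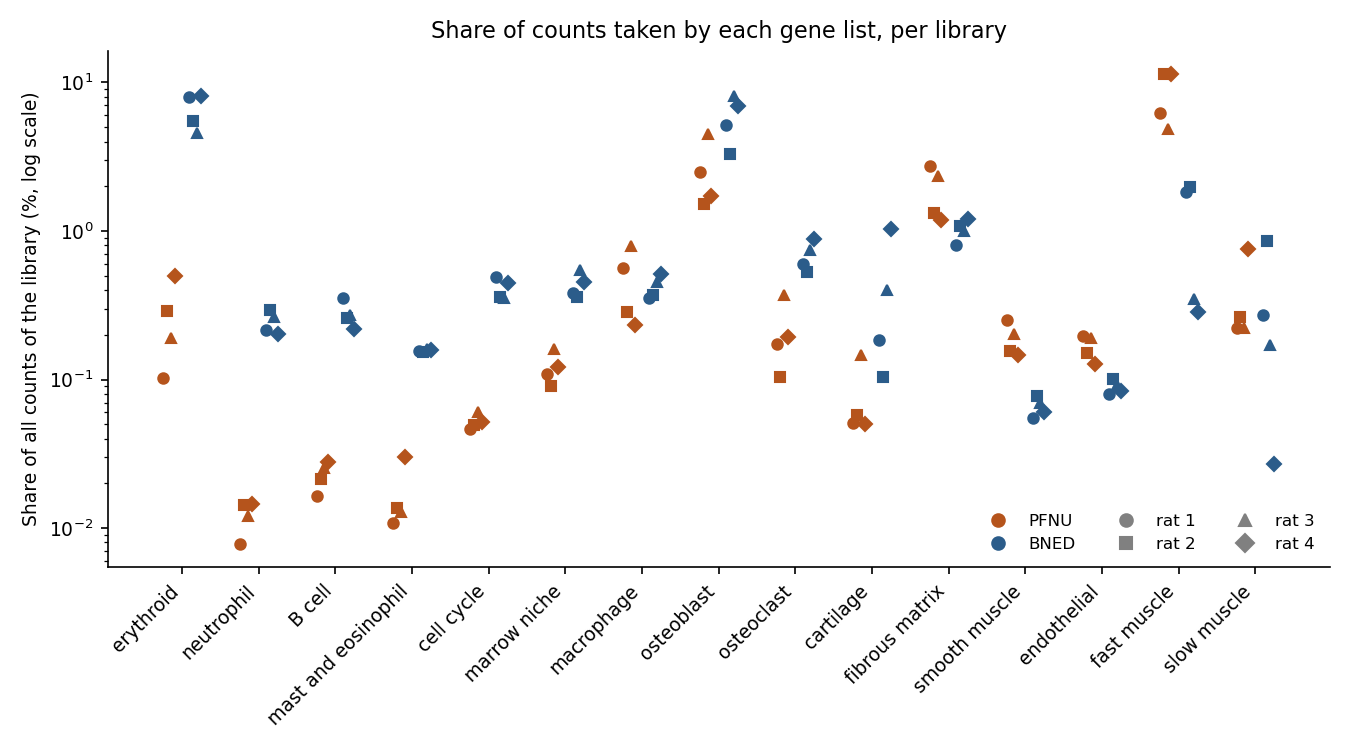
Share of all counts of a library taken by 15 gene lists, in percent on a log scale; each point is 1 library, coloured by group and shaped by rat. For the erythroid list the range was 0.102% to 0.494% in PFNU and 4.60% to 8.07% in BNED, and for the fast muscle list it was 4.83% to 11.4% and 0.286% to 1.98%.

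The labels were checked against the genes that define each tissue. BNED held the RNA of bone and of red marrow: Col1a1, which encodes the main collagen chain of bone, was its most abundant gene with 3.63% of counts, and osteoblast, osteocyte, osteoclast and blood cell genes were all detected. PFNU held larger mean shares of fibrous matrix genes (1.90% against 1.02%, with overlap) and endothelial genes (0.166% against 0.0889%). Its most abundant gene was Acta1, the actin of skeletal muscle, with 2.62% of counts. The 3 lists of muscle fibre genes together took 10.5, 18.1, 7.80 and 19.1% of the counts in PFNU of rats 1 to 4 and 3.57, 5.69, 0.943 and 0.483% in BNED, so the tissue labelled pre-fibrous non-union carried muscle RNA in every rat. Osteoblast genes took 2.51, 1.53, 4.48 and 1.71% in PFNU and 5.20, 3.32, 8.15 and 6.89% in BNED. In RNA from a whole tissue piece, fewer cells of a type and less RNA per cell cannot be told apart.

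**Figure D2:**
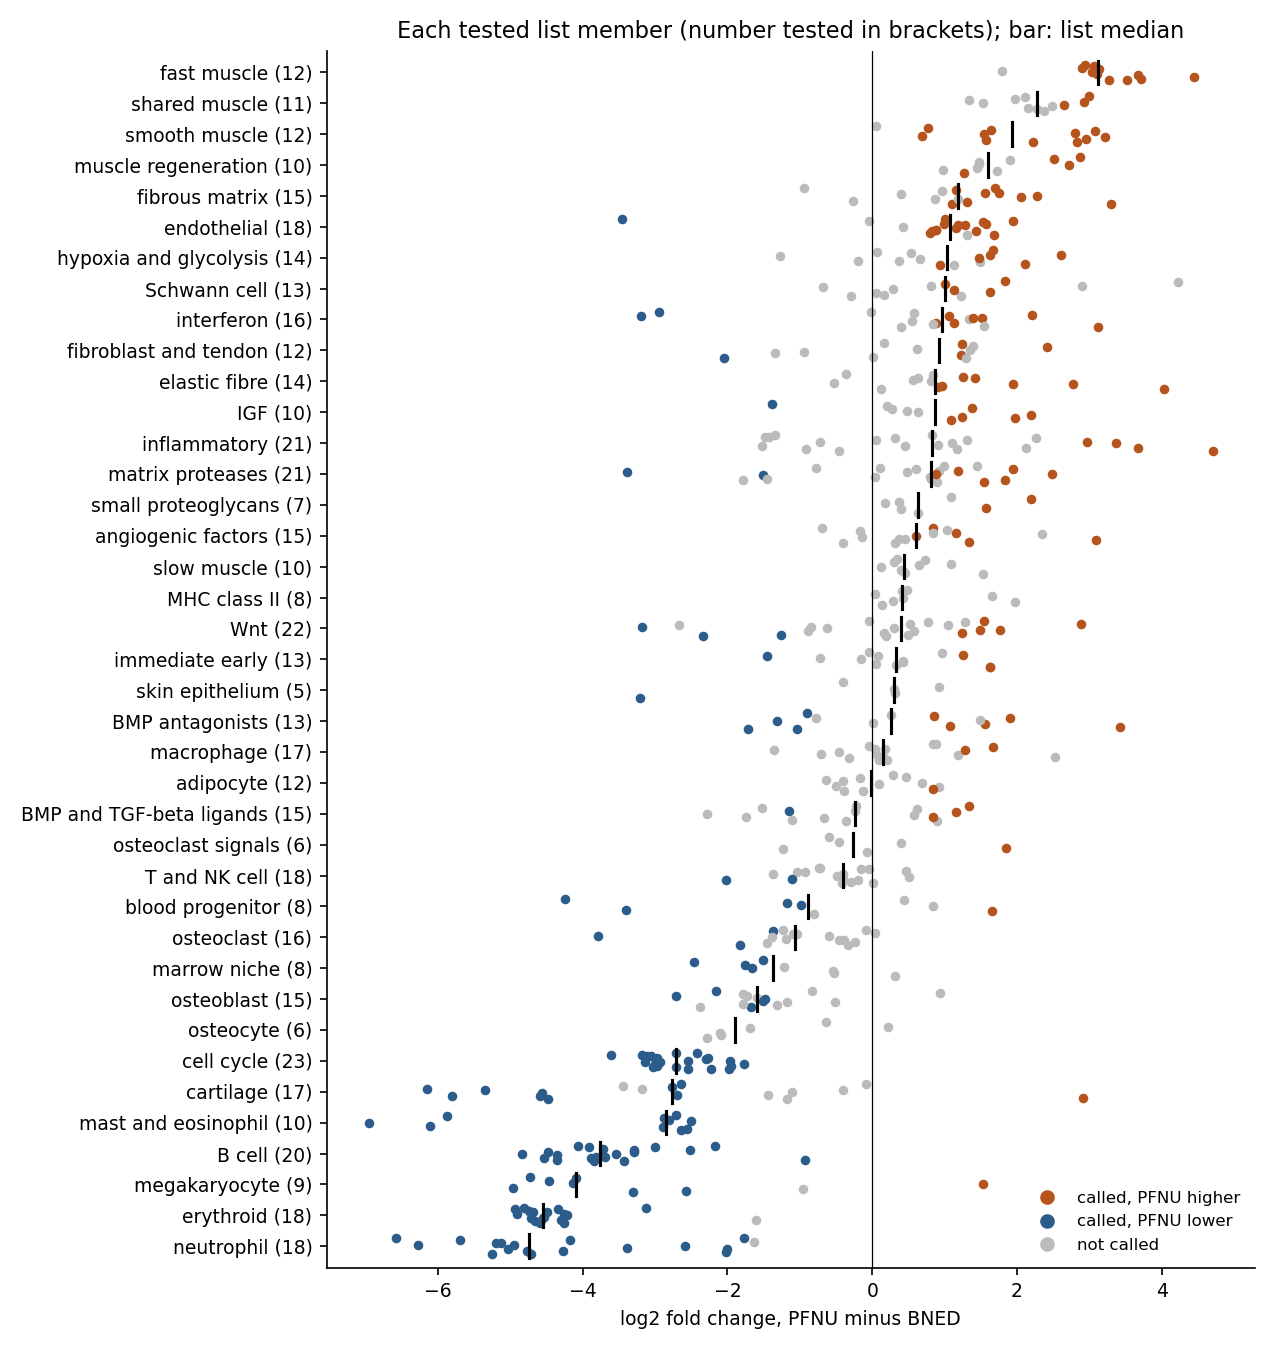
Log2 fold change, PFNU minus BNED, of every tested member of the 39 gene lists, ordered by the list's median (black bar); orange members were called higher, blue members lower and grey members were not called. The neutrophil, erythroid, megakaryocyte and B cell lists lie at the lower end, with medians of -4.73, -4.54, -4.08 and -3.76, and the fast muscle list lies at the upper end with 3.12.

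Red cell genes were the most abundant group that fell. The erythroid list covers haemoglobin chains, haem synthesis, the red cell membrane and the transcription factors of the line, and 17 of its 18 tested members were lower in PFNU and none higher, with a median log2 fold change of -4.54 against 0.04 over all genes tested. Alas2, the first enzyme of haem synthesis in red cell precursors, stood at 10.2, 46.0, 20.6 and 65.7 CPM in PFNU of rats 1 to 4 and 896, 850.2, 565 and 907 CPM in BNED. The lowest BNED library held 8.59 times the CPM of the highest PFNU library (-4.50 ± 0.89 on the log2 scale, adjusted p = 0.00207). PFNU of rat 1 was lowest and PFNU of rat 4 highest in Alas2, and the same order held for the share of counts of the whole list, 0.102, 0.288, 0.191 and 0.494% in PFNU of rats 1 to 4. Klf1, the factor that switches on globin genes, fell by 4.53 on the log2 scale, Epor, the receptor for erythropoietin, by 3.13, Rhd, a blood group protein of the membrane, by 4.71, and Trim10, which is needed for red cell maturation, by 4.94. The globin genes Hba1, Hba2, Hbb and Hbb-b1 were lower by 4.22 to 4.34 on the same scale; they are near-identical copies whose reads the counting could have split in ways not given in the sources used here, so their individual values are uncertain. The member that was not called was Sptb, a spectrin chain that muscle also makes, at 89.9 against 272 CPM (log2 fold change -1.60, adjusted p = 0.262).

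Windows around the annotated starts of 2 of these genes are shown because the list moved as a group. RefSeq windows of 300 bases, 250 before to 50 after a transcript's start in build GRCr8, were matched by symbol for 12 of the 18 erythroid genes. The letters AGATAA or TGATAA, which the GATA factors of the erythroid line bind, were searched on both strands. They occurred in 8 of the 12 genes and in 19.9% of all 27457 genes with a window. Of lists that rose, 4 of 10 endothelial and 0 of 10 fast muscle genes with a window held them. The motif was chosen after the counts had been seen, and a match describes the letters only. In both sequences capitals mark the match. It begins 136 bases before the annotated start of Alas2 (chrX:22895200-22895499, plus strand). In Klf1 the reverse complement TTATCA begins 26 bases before the annotated start (chr19:40158602-40158901, minus strand). Whether these starts are the ones used in red cell precursors was not tested, so the Alas2 match may lie outside the promoter used there.
Alas2: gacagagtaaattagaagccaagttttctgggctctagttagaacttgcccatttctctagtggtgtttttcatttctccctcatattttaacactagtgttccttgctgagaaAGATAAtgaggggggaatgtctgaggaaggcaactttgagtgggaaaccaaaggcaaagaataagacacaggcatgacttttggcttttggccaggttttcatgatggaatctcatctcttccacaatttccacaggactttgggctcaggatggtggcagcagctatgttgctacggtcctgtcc
Klf1: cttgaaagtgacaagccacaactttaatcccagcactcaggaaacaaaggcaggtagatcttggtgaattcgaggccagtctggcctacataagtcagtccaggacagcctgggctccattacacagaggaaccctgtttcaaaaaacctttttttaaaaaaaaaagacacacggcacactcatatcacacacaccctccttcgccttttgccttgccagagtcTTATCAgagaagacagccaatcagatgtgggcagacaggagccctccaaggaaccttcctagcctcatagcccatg

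Neutrophil and granule genes fell about as far as red cell genes; their median was the lower of the 2, except without PFNU of rat 4 (-4.94 against -5.12). Of 18 tested members of the neutrophil list, 17 were lower and none higher, with a median of -4.73, and Ltf, the remaining one, had under 1 CPM in both groups. S100a9, a calcium-binding protein that makes up much of a neutrophil's cytoplasm, measured 11.8, 43.7, 26.6 and 57.3 CPM in PFNU of rats 1 to 4 and 593, 673, 676 and 568 CPM in BNED. All 4 rats showed the loss, from at least 568 CPM to at most 57.3 (-4.17 ± 0.61 on the log2 scale, adjusted p = 0.00033). The serine proteases of the primary granule, Prtn3 (-6.58 ± 0.94, adjusted p = 0.000298), Ctsg (-6.27 ± 0.90, adjusted p = 0.000296) and Elane (-5.70 ± 0.91, adjusted p = 0.000518), changed more than S100a9. These are made in the marrow by promyelocytes, before a neutrophil is released. Ngp and Camp of the secondary granule fell by 5.13 and 5.25, and Cd177, a surface protein of neutrophils, by 5.20. Prtn3 reached 0, 15, 6 and 1 counts in PFNU against 550, 1681, 473 and 241 in BNED, so its fold change rests on few reads in PFNU. The defensin genes, Np4, RatNP-3b and Defa5, were lower by 4.76 to 5.03, with the same uncertainty between near-identical copies as for the globins.

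Eosinophil and mast cell genes fell without exception, 10 of 10 tested, with a median of -2.84. The list divides by size of change. The eosinophil granule genes Prg3, Epx (eosinophil peroxidase) and Prg2 (major basic protein) lay between -6.95 and -5.87, and Prg3 had the largest fall of all genes that met the rule for naming (-6.95 ± 0.95, adjusted p = 0.000228). Mast cell genes fell less, from -2.89 for Ms4a2, a chain of the IgE receptor, to -2.50 for Mcpt1. Tpsb2, a tryptase, stood at 10.5, 11.8, 9.93 and 31.2 CPM in PFNU of rats 1 to 4 and 131, 134, 101 and 98.2 CPM in BNED. PFNU of rat 4 held more tryptase RNA than the other PFNU libraries and still lay below every BNED library (-2.87 ± 0.42 on the log2 scale, adjusted p = 0.000339). Hdc, the enzyme that makes histamine, fell by 2.71 (SE 0.35, adjusted p = 0.000197).

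Every tested gene of the B cell list was lower, 20 of 20, with a median of -3.76 and a range of -4.84 to -0.93. Cd79b, a signalling chain of the B cell receptor, measured 5.32, 19.7, 13.5 and 27.1 CPM in PFNU of rats 1 to 4 and 291, 244, 242 and 188 CPM in BNED, and no PFNU library came near BNED (-3.88 ± 0.41 on the log2 scale, adjusted p = 7.12e-05). Cd72, a coreceptor, had the smallest p of the list (-3.29 ± 0.27, adjusted p = 3.30e-05), followed by the B cell Fc receptor-like gene Fcrla (-3.72 ± 0.37, adjusted p = 5.94e-05) and the kinase gene Blk (-3.84 ± 0.40, adjusted p = 6.14e-05). The genes of B cell precursors, which recombine their antibody genes in marrow, were among the largest changes: Vpreb1 -4.84, Rag2 -4.54, Rag1 -4.48, Vpreb3 -4.35 and Igll1 -4.35. Ms4a1, a marker of mature B cells, changed by -3.42, and Ebf1, which marrow stroma and fat also use, by -0.93, the smallest change of the list.

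Megakaryocyte and platelet genes were lower in 7 of 9 cases, with a median of -4.08. Nfe2, a transcription factor of platelet formation, measured 2.53, 5.14, 3.36 and 5.49 CPM in PFNU of rats 1 to 4 and 81.4, 82.2, 58.4 and 67.2 CPM in BNED, a clear gap in every rat (-4.13 ± 0.61 on the log2 scale, adjusted p = 0.000347). Gp5 (-4.97), Gp9 (-4.73) and Gp1ba (-4.47), the parts of the platelet receptor for von Willebrand factor, and the platelet chemokine Ppbp (-4.08) followed it, although Gp5 and Gp9 had at most 18 counts in any PFNU library. Pf4 was not called at 27.6 against 53.5 CPM. Selp, which platelets and activated endothelium both make, was the exception and rose: 53.9, 25.7, 34.1 and 28.8 CPM in PFNU of rats 1 to 4 and 13.2, 15.6, 10.1 and 10.6 CPM in BNED (1.52 ± 0.29 on the log2 scale, adjusted p = 0.00168).

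Blood progenitor genes split. Gfi1b (-4.24 ± 0.83, adjusted p = 0.0019) and Gfi1 (-3.40 ± 0.70, adjusted p = 0.00264), regulators of the erythroid and granulocyte lines, Gata2 (-1.18) and the stem cell factor receptor gene Kit (-0.98 ± 0.22, adjusted p = 0.0042) fell, whereas Mecom, which is expressed in stem cells and in endothelium, rose at 30.5, 29.6, 29.8 and 25.7 CPM in PFNU of rats 1 to 4 and 6.99, 9.53, 9.73 and 10.5 CPM in BNED (1.65 ± 0.19 on the log2 scale, adjusted p = 0.000108). Flt3, Meis1 and Mycn did not pass. The stromal cells that hold marrow cells showed the same direction in 4 of 8 tested genes of the marrow niche list and the opposite in none (median -1.37). Cxcl12, their retention signal, measured 709, 736, 1079.7 and 1070.0 CPM in PFNU of rats 1 to 4 and 2677, 2439.8, 3710.5 and 3312 CPM in BNED. The 4 BNED libraries lay above the 4 PFNU libraries with no overlap (-1.76 ± 0.34 on the log2 scale, adjusted p = 0.00183), and the lowest PFNU library still held 709 CPM. Lepr, the leptin receptor that marks these cells, fell by 2.45, the adhesion gene Vcam1 by 1.65 and the transcription factor gene Foxc1 by 1.51. Kitlg, Il7, Ebf3 and Angpt1 did not pass, and 7 of the 8 passed when only these 8 libraries were fitted.

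Of the T and NK cell genes 11.1% were lower and of the macrophage genes 11.8% higher, beside 15.2% and 15.0% of all genes tested. Of 18 tested T and NK cell genes, 2 were lower and none higher, with a median of -0.41: Cd3g at 8.29, 4.54, 6.73 and 4.60 CPM in PFNU of rats 1 to 4 and 29.5, 19.4, 23.7 and 25.2 CPM in BNED (-2.02 ± 0.40 on the log2 scale, adjusted p = 0.00194) and the kinase gene Lck (-1.11 ± 0.36, adjusted p = 0.0291). Lck lost its call without PFNU of rat 2 or 4 or BNED of rat 1 or 3, and without PFNU of rat 1 the list had 4 lower genes. DESeq2 called 3 of the list lower and limma-voom 7. Cd3e, which codes for another chain of the same receptor as Cd3g, was at 6.66 against 8.79 CPM, and Cd8a was at 16.7 against 20.4 CPM, neither called. In the macrophage list 2 of 17 genes were higher and none lower, with a median of 0.14. These were Gpnmb (1.67 ± 0.52, adjusted p = 0.0267) and Trem2 (1.27 ± 0.46, adjusted p = 0.0474), both found in lipid-handling macrophages and osteoclasts, and neither passed with a block for rat (0 of 17; adjusted p = 0.0663 for Gpnmb and 0.0877 for Trem2) or without BNED of rat 1, 2 or 3. The macrophage list had 4 higher and 1 lower with DESeq2, 4 and 2 with limma-voom, and 5 and 1 with the 8 libraries alone. Cd68, a lysosomal protein of macrophages, stood at 259, 124, 360.5 and 130.0 CPM in PFNU of rats 1 to 4 and 189, 179, 232 and 298 CPM in BNED. The groups overlapped widely (-0.04 ± 0.38 on the log2 scale, adjusted p = 0.949), and the sign turned when single libraries were left out. PFNU of rats 1 and 3 held more macrophage RNA than PFNU of rats 2 and 4, 0.563, 0.286, 0.795 and 0.233% of counts for rats 1 to 4 against 0.352, 0.368, 0.451 and 0.512% in BNED.

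Genes of cell division were lower throughout, 23 of 23 tested, with a median of -2.71 and a range of -3.61 to -1.77. Mki67, a nuclear protein of dividing cells, measured 36.7, 69.0, 64.3 and 81.5 CPM in PFNU of rats 1 to 4 and 892, 626, 617 and 931 CPM in BNED. It fell 12.2-fold by group means (-3.61 ± 0.67 on the log2 scale, adjusted p = 0.00137). Top2a, a topoisomerase of replicating and mitotic chromosomes, measured 26.4, 41.1, 43.0 and 47.2 CPM in PFNU of rats 1 to 4 and 411, 283, 283 and 406 CPM in BNED (-3.13 ± 0.48 on the log2 scale, adjusted p = 0.000404). The survivin gene Birc5 (-3.0 ± 0.40, adjusted p = 0.000205) and Aurkb (-2.97 ± 0.40, adjusted p = 0.000205) act in mitosis, and Mcm2 (-2.22 ± 0.31, adjusted p = 0.000245) belongs to the replicative helicase. The mitotic genes Ccnb2, Cenpf, Plk1, Ccna2 and Ccnb1 lay between -3.18 and -2.98. Of the S phase genes, Rrm2 and Mcm5 were at -3.11 and -2.71, and Mcm2, Mcm3, Mcm4, Mcm6, Mcm7, Pcna and Tyms between -2.30 and -1.77. The share of counts of the list and that of the erythroid, neutrophil and B cell lists were all lower in every PFNU library than in any BNED library, and whether the dividing cells of BNED belonged to those lines was not tested.

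The windows of 2 cell cycle promoters are shown because all tested members of the list fell. The letters CCAAT, the site of the factor NF-Y, occurred on either strand in 14 of 18 cell cycle genes with a window and in 39.6% of all genes, and TTTGAA or TTCGAA, the element that represses mitotic genes outside division, in 9 of 18 and 21.0%. In other lists CCAAT ran from 0 of 9 fibrous matrix genes to 6 of 6 MHC class II genes, a list without a called member. The letters CAGCTG or CACCTG, and AGGAAG, were searched in all lists too, and their counts are not reported here. The matches of the 2 motifs do not overlap in the 2 windows printed here, but a match of each shares a base in the window of Mki67. The motifs were chosen after the counts had been seen, and they are marked together in capitals, with their reverse complements ATTGG and TTCAAA. The window of Ccnb2, a mitotic cyclin (chr8:79981609-79981908, minus strand), holds 5 matches, and that of Top2a (chr10:84473044-84473343, minus strand) holds 6.
Ccnb2: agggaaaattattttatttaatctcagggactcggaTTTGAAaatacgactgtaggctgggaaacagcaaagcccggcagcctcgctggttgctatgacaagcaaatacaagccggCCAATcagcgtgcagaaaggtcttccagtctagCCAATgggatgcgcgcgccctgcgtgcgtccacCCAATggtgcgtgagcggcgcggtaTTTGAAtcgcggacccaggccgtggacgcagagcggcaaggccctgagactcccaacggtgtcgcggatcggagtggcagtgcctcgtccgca
Top2a: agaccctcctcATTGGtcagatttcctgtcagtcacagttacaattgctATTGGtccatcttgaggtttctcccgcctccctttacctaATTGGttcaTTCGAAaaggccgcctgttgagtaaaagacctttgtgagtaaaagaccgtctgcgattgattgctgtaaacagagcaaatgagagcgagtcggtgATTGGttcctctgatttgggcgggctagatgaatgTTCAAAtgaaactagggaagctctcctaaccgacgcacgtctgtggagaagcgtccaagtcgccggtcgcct

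**Figure D3:**
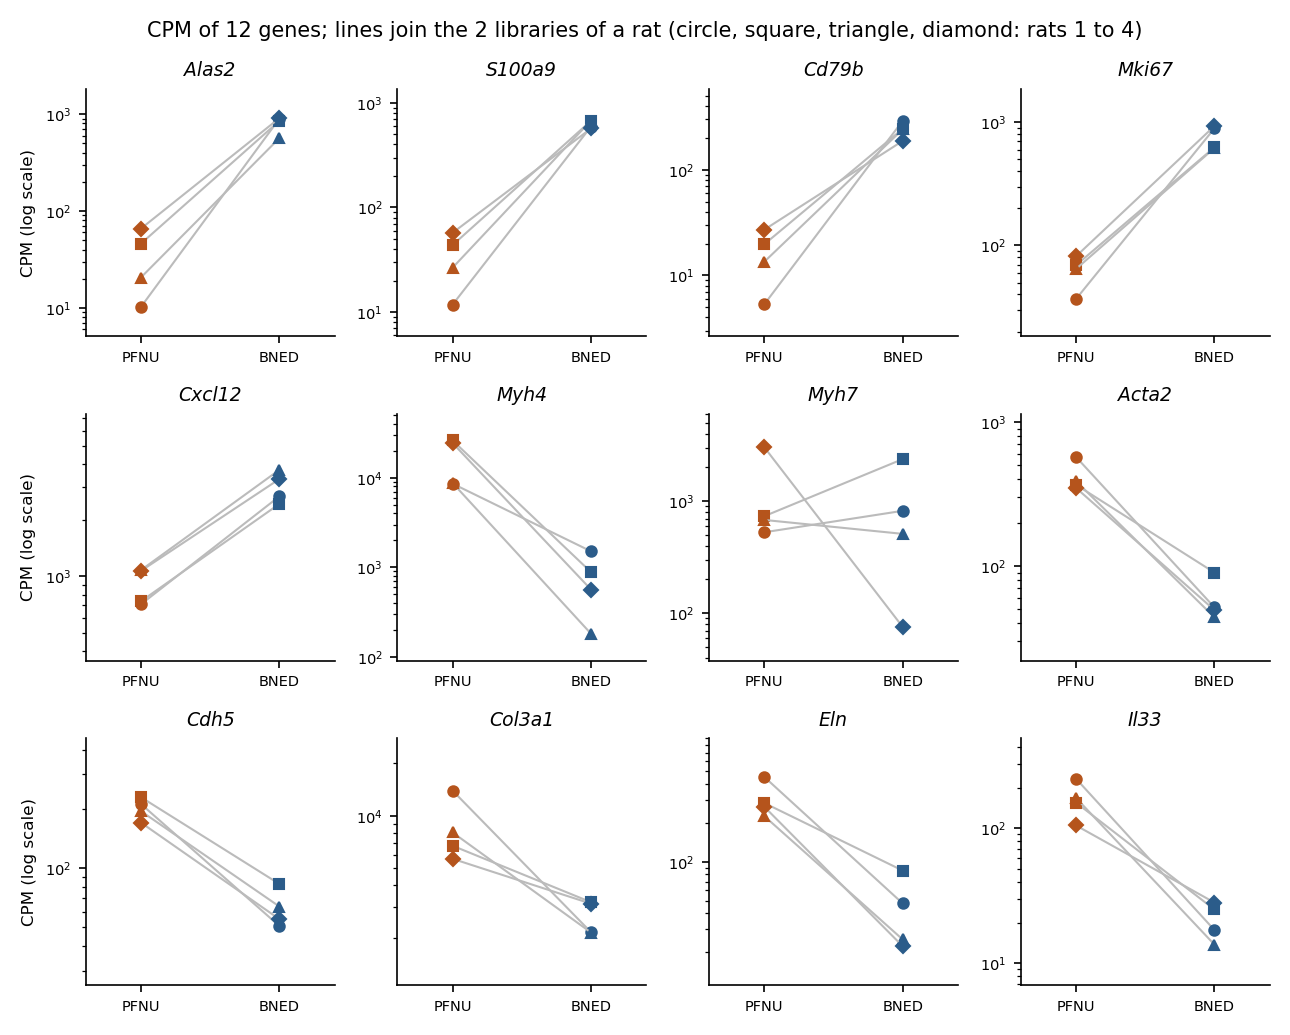
CPM on a log scale of 12 genes in PFNU and BNED, 1 line for each rat. Alas2, S100a9, Cd79b, Mki67 and Cxcl12 lie lower in PFNU in all 4 rats, Myh4, Acta2, Cdh5, Col3a1, Eln and Il33 lie higher in all 4, and the lines of Myh7 cross.

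Fast muscle genes rose most. Of 12 tested, 11 were higher and none lower, with a median of 3.12. Myh4, the myosin of the fastest fibres, measured 8591, 26099.6, 8739 and 24428 CPM in PFNU of rats 1 to 4 and 1507, 882, 181 and 564 CPM in BNED. The lowest PFNU library held 5.70 times the CPM of the highest BNED library (4.44 ± 0.94 on the log2 scale, adjusted p = 0.00307). PFNU of rats 2 and 4 lay well above PFNU of rats 1 and 3, and BNED varied widely. Pvalb, the calcium buffer of fast fibres, was also highest in PFNU of rats 2 and 4, with 2147, 4161, 1671 and 4259 CPM in PFNU of rats 1 to 4 and 508, 278, 50.9 and 101 CPM in BNED (3.71 ± 0.91 on the log2 scale, adjusted p = 0.00741). The fast troponin gene Tnnt3 rose by 3.27 and Mybpc2, a protein of the fast thick filament, by 3.67. Myh2, the myosin of the slowest of the fast fibres, did not pass at 2249 against 649.6 CPM (log2 fold change 1.79). Reads of the myosin heavy chain genes may be shared between copies.

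No slow muscle gene was called, 0 of 10 by edgeR, 0 at an unadjusted p under 0.05, 0 with DESeq2 and 2 with limma-voom, and a median of 0.44. Myh7, the slow myosin, measured 528, 734, 679.8 and 3031 CPM in PFNU of rats 1 to 4 and 819.9, 2374, 511 and 75.4 CPM in BNED. The highest PFNU library was rat 4 and the highest BNED library rat 2, and the rats disagreed in direction (0.40 ± 0.83 on the log2 scale, adjusted p = 0.742). Without PFNU of rat 4 the log2 fold change of Myh7 was -0.55 and the list's median -0.20. Without BNED of rat 2 the list's median was 1.54 with 1 gene higher.

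Genes shared by all muscle fibres lay between. Of 11 tested, 3 were higher, with a median of 2.28: Casq1 (2.99 ± 0.87, adjusted p = 0.0188) and Trdn (2.65 ± 0.78, adjusted p = 0.0197), both of the calcium store of the fibre, and the creatine kinase gene Ckm (2.92 ± 0.94, adjusted p = 0.0295). Acta1 stood at 20906, 37828, 12871 and 42945 CPM in PFNU of rats 1 to 4 and 6605, 12970.5, 1765 and 785 CPM in BNED, 2.37 on the log2 scale, and was not called (adjusted p = 0.0735). With a block for rat Ckm did not pass (adjusted p = 0.0566). The count depended on the tool, with 9 of 11 higher by DESeq2 and 11 of 11 by limma-voom. Single libraries moved it too: 9 were called without BNED of rat 2, 10 without it and PFNU of rat 3, 1 without PFNU of rat 2 or BNED of rat 4 and 0 without BNED of rat 3. The muscle regeneration list, of satellite cell and immature fibre genes, had 4 of 10 higher: Musk (2.87 ± 0.87, adjusted p = 0.0226) and Chrna1 (1.26 ± 0.41, adjusted p = 0.0321) of the nerve-muscle synapse, the perinatal myosin gene Myh8 (2.51 ± 0.85, adjusted p = 0.0365) and Myod1, the myoblast factor (2.72 ± 0.97, adjusted p = 0.0463). Myog, Myf5 and Pax7 did not pass. This count fell to 0 without PFNU of rat 2 or BNED of rat 1, 3 or 4, to 1 without PFNU of rat 1 or 4 or with total counts, and rose to 9 without BNED of rat 2. It was 4 with DESeq2 and 10 with limma-voom.

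Genes of glycolysis and of the hypoxia response were higher in 6 of 14 cases, with a median of 1.03. Ldha, lactate dehydrogenase A, measured 1738, 3442, 1332 and 3405 CPM in PFNU of rats 1 to 4 and 715, 746, 376 and 453 CPM in BNED (2.11 ± 0.50 on the log2 scale, adjusted p = 0.0058). In PFNU, rats 2 and 4 lay above rats 1 and 3, as for Myh4. Aldoa (2.60 ± 0.69, adjusted p = 0.0114) and Pgk1 (1.63 ± 0.41, adjusted p = 0.00928), enzymes that muscle holds in quantity, and the mitophagy gene Bnip3 (1.67 ± 0.48, adjusted p = 0.0166) also rose, as did Hk2 and Adm. The hypoxia genes Car9, Slc2a1, Pdk1, Egln3 and Ankrd37 did not pass, and without BNED of rat 3 the count was 3. The share of muscle RNA moved with these genes, and its part in them was not tested.

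Fibrous matrix genes were higher in 9 of 15 cases and lower in none, with a median of 1.19. Col3a1, the collagen chain of loose and healing connective tissue, measured 13913, 6734, 8022 and 5671 CPM in PFNU of rats 1 to 4 and 2157, 3202, 2148 and 3141 CPM in BNED. PFNU of rat 1 was highest and no libraries overlapped (1.69 ± 0.41 on the log2 scale, adjusted p = 0.00665). Col14a1, a collagen of fibril surfaces in tendon and dermis, changed most, from 29.6, 75.9, 22.2 and 47.3 CPM in BNED to 632, 268, 568 and 249 CPM in PFNU (3.30 ± 0.50 on the log2 scale, adjusted p = 0.000385). Col15a1 of basement membranes (1.76 ± 0.33, adjusted p = 0.0016) and the fibulin gene Fbln1 (1.31 ± 0.25, adjusted p = 0.00159) rose in all 4 rats, with Thbs2, Fndc1, Col8a1 and Col6a2. Postn, periostin of periosteum and ligament, was at 2406 ± 441 CPM in PFNU and 1117 ± 259 CPM in BNED (SD, n = 4 each). Its groups did not overlap (1.11 ± 0.38 on the log2 scale, adjusted p = 0.0401), but the call was lost when any library other than BNED of rat 2 was left out. Tnc, Col5a1, Col5a2, Fn1, Col16a1 and Thbs4 did not pass. The count was 5 without BNED of rat 1, 3 or 4.

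Elastic fibre genes were higher in 7 of 14 cases and lower in none (median 0.87). Eln, tropoelastin, measured 454, 285, 226 and 267 CPM in PFNU of rats 1 to 4 and 47.6, 85.5, 25.1 and 22.2 CPM in BNED (2.77 ± 0.56 on the log2 scale, adjusted p = 0.00238). BNED of rat 2, the bone library with the most muscle RNA, also held the most elastin. Efemp1, a fibulin, was among the 10 largest rises of all named genes at 81.0, 57.4, 23.2 and 28.1 CPM in PFNU of rats 1 to 4 and 2.89, 5.12, 1.54 and 1.97 CPM in BNED (4.03 ± 0.65 on the log2 scale, adjusted p = 0.00055). The microfibril genes Mfap5 (1.95 ± 0.39, adjusted p = 0.00229) and Mfap2 (1.42 ± 0.32, adjusted p = 0.00469) and Fbn1 rose, as did the crosslinking enzymes Loxl1 and Loxl2, whereas Lox itself (57.0 against 32.4 CPM) was not called. With total counts and no TMM factors 4 of the 14 passed. Among 7 small leucine-rich proteoglycans, which coat collagen fibrils, Prelp rose (2.19 ± 0.45, adjusted p = 0.00247), and Dcn, Lum, Bgn, Ogn and Kera did not pass. Fmod was at the threshold (1.57 ± 0.58, adjusted p = 0.05): it lost its call with a block for rat (adjusted p = 0.0683) and when any library other than BNED of rat 4 was left out.

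The fibroblast and tendon list had 3 of 12 higher and 1 lower, with a median of 0.92. Dpt, a dermatopontin that binds decorin, measured 497, 286, 231 and 364 CPM in PFNU of rats 1 to 4 and 71.6, 115, 30.2 and 42.0 CPM in BNED (2.41 ± 0.48 on the log2 scale, adjusted p = 0.00216). Prrx1 (1.25 ± 0.23, adjusted p = 0.00133), a limb mesenchyme factor, and Pi16 (1.22 ± 0.28, adjusted p = 0.00518), a marker of adventitial fibroblasts, were also higher. Dpp4, which fibroblasts share with lymphocytes, fell at 37.1, 23.5, 24.9 and 23.1 CPM in PFNU of rats 1 to 4 and 149, 79.3, 97.7 and 122 CPM in BNED (-2.05 ± 0.45 on the log2 scale, adjusted p = 0.00364). The broad markers Pdgfra, Pdgfrb and Thy1 did not pass, and neither did the tendon genes Scx and Tnmd. With a block for rat 5 genes were higher.

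Smooth muscle genes rose in 11 of 12 cases, with a median of 1.93. Acta2, smooth muscle actin, measured 573, 367, 389 and 349 CPM in PFNU of rats 1 to 4 and 51.7, 90.2, 44.1 and 49.6 CPM in BNED. The lowest PFNU library held 3.87 times the CPM of the highest BNED library, which was that of rat 2 (2.83 ± 0.38 on the log2 scale, adjusted p = 0.000205). Myh11, the smooth muscle myosin that fibroblasts lack, behaved alike with 438, 349, 245 and 322 CPM in PFNU of rats 1 to 4 and 48.2, 66.5, 31.1 and 29.5 CPM in BNED (2.95 ± 0.44 on the log2 scale, adjusted p = 0.00035). Actg2 (3.08 ± 0.45, adjusted p = 0.00033) and Rgs5, a pericyte gene (1.64 ± 0.25, adjusted p = 0.000424), followed. Cspg4, another pericyte gene, was the member that did not pass, at 69.2 against 66.5 CPM.

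Endothelial genes were higher in 14 of 18 cases and lower in 1, with a median of 1.08. Cdh5, the cadherin of vessel walls, measured 212, 229, 195 and 170.3 CPM in PFNU of rats 1 to 4 and 50.7, 83.0, 63.7 and 54.9 CPM in BNED, and Pecam1 369, 315, 313 and 266 CPM in PFNU of rats 1 to 4 and 108, 124, 103 and 101 CPM in BNED. Both were higher with no overlap between libraries (Cdh5: 1.68 ± 0.23, adjusted p = 0.000231; Pecam1: 1.53 ± 0.24, adjusted p = 0.000463). Flt1, a receptor for vascular endothelial growth factor, rose by 1.43 (SE 0.19, adjusted p = 0.000205) and Sox17, a factor of arteries, by 1.57 (SE 0.27, adjusted p = 0.000807). Vwf (1.95) had the largest rise of the list. Stab2, the scavenger receptor of sinusoids, the vessels of marrow, liver and spleen, was the gene that fell: 1.15, 1.56, 0.270 and 3.34 CPM in PFNU of rats 1 to 4 and 19.1, 21.3, 11.6 and 17.3 CPM in BNED (-3.46 ± 0.79 on the log2 scale, adjusted p = 0.00497). Kdr, Flt4 and Prox1 did not pass, and 9 genes were higher with total counts and no TMM factors.

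Nerve sheath genes rose in 4 of 13 cases, with a median of 1.00: Pmp22 (1.00 ± 0.25, adjusted p = 0.008) and Prx (1.13 ± 0.35, adjusted p = 0.0253) of myelin, the neuregulin receptor gene Erbb3 (1.62 ± 0.48, adjusted p = 0.0202) and the growth cone gene Gap43 (1.83 ± 0.51, adjusted p = 0.0146). The count was 2 without PFNU of rat 1 or BNED of rat 1, and 2 with total counts and no TMM factors.

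Bone-forming genes were lower in 5 of 15 cases and higher in none, with a median of -1.60. Bglap, osteocalcin, the late osteoblast product, measured 67.6, 211, 472 and 328 CPM in PFNU of rats 1 to 4 and 1830.0, 914, 2689 and 1615 CPM in BNED. PFNU of rat 1 was lowest and PFNU of rat 3 highest, and the groups did not overlap (-2.71 ± 0.88 on the log2 scale, adjusted p = 0.0313). Alpl, alkaline phosphatase (-1.68 ± 0.60, adjusted p = 0.0465), the sphingomyelin synthase gene Sgms2 (-1.51 ± 0.44, adjusted p = 0.019), the parathyroid hormone receptor gene Pth1r (-1.48 ± 0.46, adjusted p = 0.0244) and Dlx3 (-2.16 ± 0.76, adjusted p = 0.0443) were also lower. Col1a1, which fibroblasts also make, measured 13315, 8923, 23116 and 10744 CPM in PFNU of rats 1 to 4 and 28305, 17386, 43824 and 37297 CPM in BNED. PFNU of rat 3 lay above BNED of rat 2, and the difference did not pass (-1.18 ± 0.56 on the log2 scale, adjusted p = 0.121). Runx2 and Sp7, the transcription factors of the osteoblast line, were at 53.0 ± 27.2 CPM in PFNU and 132 ± 49.4 CPM in BNED (SD, n = 4 each) and 8.83 ± 7.69 CPM in PFNU and 29.2 ± 10.8 CPM in BNED (SD, n = 4 each). They were not called (adjusted p = 0.0571 and 0.155) and passed with a block for rat (adjusted p = 0.0189 and 0.0181). The count of 5 depended on single libraries and on the fit: it was 0 without PFNU of rat 1 or 2 or BNED of rat 3 or 4, 1 without PFNU of rat 4, 2 without BNED of rat 1, 10 without PFNU of rat 3, 8 without BNED of rat 2, and 11 with a block for rat. Within rats, the CPM of Bglap, Col1a1, Runx2 and Sp7 was lower in PFNU than in BNED in 4 of 4.

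Osteocyte genes were lower in none of 6 cases by edgeR, with 2 at an unadjusted p under 0.05, 1 by DESeq2, 5 by limma-voom and 2 with a block for rat. Their median was -1.89. Dmp1, a matrix protein of young osteocytes, measured 39.1, 108, 288 and 194 CPM in PFNU of rats 1 to 4 and 549.6, 346, 979 and 1172 CPM in BNED. The groups did not overlap although the call was missed (-2.28 ± 0.92 on the log2 scale, adjusted p = 0.0727), and with a block for rat the adjusted p was 0.0341. Sost, sclerostin of mature osteocytes, measured 0.562, 1.87, 8.04 and 2.52 CPM in PFNU of rats 1 to 4 and 7.14, 5.35, 23.0 and 20.1 CPM in BNED and overlapped (-2.09 ± 1.05 on the log2 scale, adjusted p = 0.142). Both genes were highest in BNED of rats 3 and 4 and, in PFNU, in rat 3.

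Osteoclast genes were lower in 3 of 16 cases, with a median of -1.07. Acp5, tartrate-resistant acid phosphatase, measured 152, 142, 440.2 and 361 CPM in PFNU of rats 1 to 4 and 907, 758, 996 and 1214 CPM in BNED (-1.82 ± 0.59 on the log2 scale, adjusted p = 0.0305), and Ctsk, the collagen-degrading cathepsin of osteoclasts, 850.2, 489.5, 1724 and 1080.4 CPM in PFNU of rats 1 to 4 and 2232, 1809, 2934 and 3770.1 CPM in BNED (-1.37 ± 0.50 on the log2 scale, adjusted p = 0.0486). Neither overlapped between groups. Car2, carbonic anhydrase 2, fell furthest (-3.79 ± 0.68, adjusted p = 0.00114); red cells make it too, and the erythroid list fell in the same libraries, a part that was not tested. The subunits of the acid pump and its partners, Tcirg1, Clcn7, Ostm1 and Atp6v1c1, and the factor gene Nfatc1 lay between -0.39 and 0.03, none called. The count was 1 without PFNU of rat 1 or 2 or BNED of rat 1, 3 or 4, 6 without PFNU of rat 3 and 8 with a block for rat. Among 6 genes that signal to osteoclasts, Il34, a ligand of the receptor CSF1R, rose at 41.8, 30.7, 30.4 and 27.7 CPM in PFNU of rats 1 to 4 and 6.81, 12.3, 9.12 and 8.05 CPM in BNED (1.85 ± 0.30 on the log2 scale, adjusted p = 0.00056). Its receptor gene Csf1r (301 against 413 CPM) and the other ligand gene Csf1 (142 against 149 CPM) did not pass. Tnfsf11, RANKL, the osteoclast differentiation factor, measured 1.62, 1.38, 1.60 and 2.57 CPM in PFNU of rats 1 to 4 and 4.06, 2.45, 5.66 and 4.61 CPM in BNED (-1.23 ± 0.51 on the log2 scale, adjusted p = 0.0811), and its decoy Tnfrsf11b, osteoprotegerin, measured 28.0, 14.0, 16.1 and 10.2 CPM in PFNU of rats 1 to 4 and 7.66, 6.0, 13 and 25.1 CPM in BNED (0.40 ± 0.45 on the log2 scale, adjusted p = 0.524). The groups overlapped in both.

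Cartilage genes varied widely between rats. Of 17 tested, 9 were lower and 1 higher, with a median of -2.77. Col2a1, the collagen of cartilage, measured 6.17, 109, 6.38 and 15.7 CPM in PFNU of rats 1 to 4 and 9.44, 13.6, 439 and 5149 CPM in BNED. BNED of rat 4, and less so of rat 3, held it in quantity, while BNED of rats 1 and 2 lay within the range of PFNU (-5.35 ± 1.95 on the log2 scale, adjusted p = 0.0497). Hapln1, which links proteoglycan to hyaluronan, had the same pattern at 1.06, 2.90, 1.62 and 2.36 CPM in PFNU of rats 1 to 4 and 1.28, 1.17, 12.8 and 172 CPM in BNED, and Ihh, the growth plate signal, reached 0.277, 0.411, 0.768 and 8.53 CPM in BNED. With a block for rat neither Col2a1 nor Hapln1 passed (adjusted p = 0.36 and 0.0903). Without BNED of rat 4 none of the list was lower; without PFNU of rat 4 the count was 1, without PFNU of rat 1 it was 2, without PFNU of rat 3 it was 5, and with a block for rat 3. Col11a2, which osteoblasts also make, fell at 30.4, 86.8, 184 and 122 CPM in PFNU of rats 1 to 4 and 551, 300.4, 941 and 843 CPM in BNED (-2.64 ± 0.81 on the log2 scale, adjusted p = 0.0244), a call lost without PFNU of rat 1, 2 or 4 or BNED of rat 3 or 4. Cytl1, a secreted protein of chondrocytes and of CD34+ cells, rose at 32.8, 46.4, 25.8 and 54.0 CPM in PFNU of rats 1 to 4 and 5.08, 10.2, 3.76 and 1.99 CPM in BNED (2.91 ± 0.75 on the log2 scale, adjusted p = 0.00988).

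**Figure D4:**
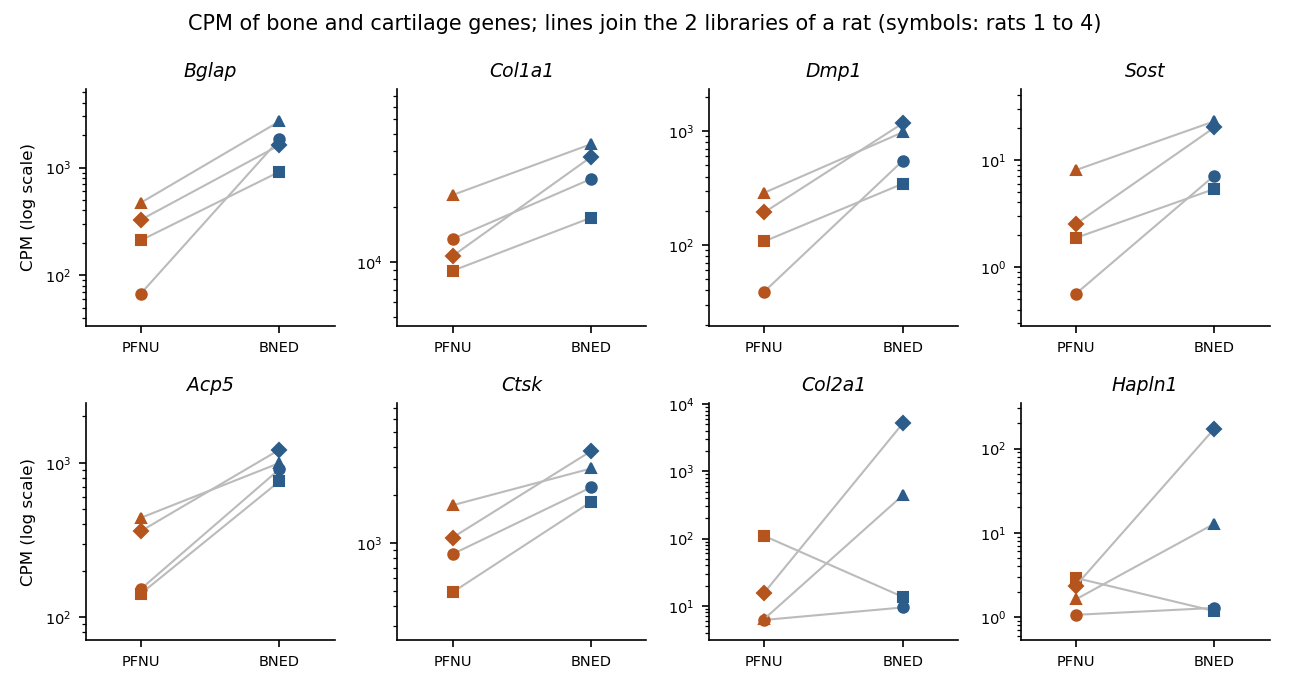
CPM on a log scale of bone and cartilage genes in PFNU and BNED, 1 line for each rat. Bglap, Dmp1, Acp5 and Ctsk are lower in PFNU in all 4 rats with no overlap between groups, Col1a1 and Sost are lower in each rat with overlap, and Col2a1 spans 9.44 to 5149 CPM within BNED.

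Growth factor genes of the BMP and TGF-beta family, which drive bone and scar formation, went both ways, with 3 of 15 higher, 1 lower and a median of -0.24. Tgfb3 measured 92.0, 59.4, 69.3 and 83.4 CPM in PFNU of rats 1 to 4 and 26.4, 39.6, 22.9 and 31.9 CPM in BNED (1.33 ± 0.27 on the log2 scale, adjusted p = 0.00248), and Tgfb2 (0.84 ± 0.22, adjusted p = 0.00967) and Bmp5 (1.16 ± 0.30, adjusted p = 0.00995) rose with it. Tgfb1 did not pass at 73.4 against 86.9 CPM. Bmp2, which is needed to start fracture repair, measured 3.81, 5.22, 7.68 and 6.14 CPM in PFNU of rats 1 to 4 and 9.74, 12.4, 15.6 and 12.9 CPM in BNED (-1.15 ± 0.38 on the log2 scale, adjusted p = 0.032). Its groups did not overlap, but the call was lost without PFNU of rat 1, 2 or 4 or BNED of rat 3 or 4, and 3 ligands were lower with a block for rat. Secreted and intracellular BMP antagonists were higher in 5 of 13 cases and lower in 4. Bmper measured 24.6, 17.9, 14.4 and 10.9 CPM in PFNU of rats 1 to 4 and 2.59, 4.65, 4.63 and 6.23 CPM in BNED (1.91 ± 0.30 on the log2 scale, adjusted p = 0.000497), and Chrd, chordin (1.56 ± 0.37, adjusted p = 0.00616), Fst and Nbl1 were also among those that rose. Grem1 (-1.32), Bambi (-1.71), Smad6 (-1.04 ± 0.28, adjusted p = 0.0122) and Chrdl1 (-0.90) fell, and Nog was level at 1.86 against 1.85 CPM. The rises numbered 3 with total counts and without any 1 of PFNU of rats 1, 2 and 4 and BNED of rats 1, 3 and 4; the falls numbered 1 or 2 without PFNU of rat 1, 2 or 4 or BNED of rat 3 or 4.

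In the Wnt list, of a pathway that promotes bone formation, 5 of 22 genes were higher and 3 lower, with a median of 0.39. The secreted inhibitors Sfrp2 (322, 185, 184 and 111 CPM in PFNU of rats 1 to 4 and 27.7, 38.5, 19.7 and 23.0 CPM in BNED; 2.88 ± 0.42 on the log2 scale, adjusted p = 0.000335) and Sfrp4 (1.76 ± 0.41, adjusted p = 0.0059) rose. Wif1, another inhibitor, which osteoblasts make, fell (-2.34). Of the ligands Wnt9a (1.49 ± 0.38, adjusted p = 0.00988) and Wnt11 (1.55) rose and Wnt5b fell (-1.26). Lef1, a transcription factor of the pathway that B cell precursors also express, fell at 0.822, 1.42, 2.24 and 2.10 CPM in PFNU of rats 1 to 4 and 16.5, 15.7, 13.3 and 14.4 CPM in BNED (-3.18 ± 0.51 on the log2 scale, adjusted p = 0.000508), and Axin2, a common readout of the pathway, did not pass at 7.22 against 6.31 CPM. Leaving out PFNU of rat 1 or 2 or BNED of rat 1 or 3 left 3 higher, and leaving out PFNU of rat 4 gave 5 lower.

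Insulin-like growth factor genes were higher in 5 of 10 cases. Igf2 measured 340.5, 493, 272 and 465 CPM in PFNU of rats 1 to 4 and 77.1, 181, 42.9 and 41.3 CPM in BNED (2.2 ± 0.54 on the log2 scale, adjusted p = 0.00743), Igf1 rose by 1.09, and the binding proteins Igfbp7 (1.38 ± 0.24, adjusted p = 0.000805), Igfbp3 (1.23 ± 0.23, adjusted p = 0.00157) and Igfbp6 (1.97 ± 0.57, adjusted p = 0.0184) rose with them. Igfals fell (-1.39) at under 3 CPM, a call lost without any library other than PFNU of rat 3 and BNED of rat 2. Without BNED of rat 3 the rises numbered 3. Angiogenic factors were higher in 5 of 15 cases and lower in none (median 0.61). Figf, which encodes VEGF-D of lymph vessels, measured 17.2, 9.48, 14.2 and 5.06 CPM in PFNU of rats 1 to 4 and 0.726, 1.72, 1.74 and 1.18 CPM in BNED (3.09 ± 0.47 on the log2 scale, adjusted p = 0.000388). The platelet-derived growth factor gene Pdgfb (1.34 ± 0.31, adjusted p = 0.00487), which recruits pericytes, and the vessel destabilising Angpt2 (1.16 ± 0.27, adjusted p = 0.00532) rose, with Apln and Pdgfa. Vegfa, the main signal for vessel growth, measured 196, 333, 141 and 355 CPM in PFNU of rats 1 to 4 and 114, 186, 132 and 144 CPM in BNED and did not pass (0.84 ± 0.45 on the log2 scale, adjusted p = 0.165). The count was 3 with total counts and without PFNU of rat 1 or 3 or BNED of rat 1 or 3, and 1 gene was lower with a block for rat.

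Matrix proteases and their inhibitors were higher in 6 of 21 cases and lower in 2, with a median of 0.81. The inhibitor gene Timp3 measured 203, 153, 131 and 130.1 CPM in PFNU of rats 1 to 4 and 38.1, 61.8, 39.0 and 33.8 CPM in BNED (1.84 ± 0.27 on the log2 scale, adjusted p = 0.000365), and Timp4 (1.95 ± 0.37, adjusted p = 0.00145) and Timp2 (0.89) rose too, while Timp1 did not pass (129 against 120.2 CPM). Adamts1 (1.54 ± 0.29, adjusted p = 0.00168) and Adamts12 rose, as did the macrophage elastase gene Mmp12 (2.49). Mmp8, the collagenase stored in neutrophils, fell (-3.38 ± 0.57, adjusted p = 0.000768), as did Mmp16. Mmp13, the collagenase of osteoblasts and hypertrophic cartilage, was at 638 ± 521 CPM in PFNU and 2190.5 ± 741 CPM in BNED (SD, n = 4 each) and was not called. With total counts 3 were higher and 4 lower, with a block for rat 4 were lower, and without PFNU of rat 1, 2 or 4 or BNED of rat 3 or 4 1 was lower.

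Inflammatory cytokine genes were higher in 4 of 21 cases and lower in none, with a median of 0.82. Ccl11, the chemokine that attracts eosinophils, measured 15.1, 14.4, 7.54 and 5.13 CPM in PFNU of rats 1 to 4 and 0.346, 0.469, 0.121 and 0.678 CPM in BNED (4.70 ± 0.55 on the log2 scale, adjusted p = 0.00012). It rose while the eosinophil granule genes fell in the same libraries. Il33, an alarm signal stored in stromal nuclei, measured 233, 155, 168 and 105 CPM in PFNU of rats 1 to 4 and 17.6, 25.0, 13.8 and 28.1 CPM in BNED (2.97 ± 0.37 on the log2 scale, adjusted p = 0.000157), and Ccl7, a monocyte attractant, rose as well (3.67 ± 0.67, adjusted p = 0.00126). Cxcl10 was high mainly in PFNU of rat 1 (173, 28.1, 12.6 and 18.4 CPM in PFNU of rats 1 to 4 and 3.10, 6.78, 6.55 and 6.10 CPM in BNED; 3.36 ± 0.85 on the log2 scale, adjusted p = 0.00874). Il6 was at or under 2.38 CPM in every library (2.38, 0.351, 0.727 and 0.327 CPM in PFNU of rats 1 to 4 and 0.225, 0.258, 0.283 and 0.0875 CPM in BNED; 2.12 ± 0.90 on the log2 scale, adjusted p = 0.0832). Il1b, Tnf, Ptgs2 and Ccl2 did not pass. With a block for rat 2 genes of the list were lower.

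Interferon-induced genes split, with 7 of 16 higher and 2 lower. Ifit2 measured 212, 119, 57.3 and 93.2 CPM in PFNU of rats 1 to 4 and 34.4, 46.1, 32.9 and 54.7 CPM in BNED (1.52 ± 0.37 on the log2 scale, adjusted p = 0.00738), and Mx2, Usp18, Ifi27, Ifi44 and Cxcl9 (3.12 ± 0.78, adjusted p = 0.008) were also among those that rose. Rsad2, the antiviral enzyme viperin, went the other way at 56.5, 36.5, 8.85 and 24.6 CPM in PFNU of rats 1 to 4 and 288, 277, 194 and 402 CPM in BNED (-3.20 ± 0.85 on the log2 scale, adjusted p = 0.0115), and Ifit1 with it at 0.995, 0.857, 1.33 and 2.71 CPM in PFNU of rats 1 to 4 and 9.48, 13.8, 10.5 and 11.6 CPM in BNED (-2.95 ± 0.53 on the log2 scale, adjusted p = 0.00109). PFNU of rat 1 held the most RNA of the list, 0.279, 0.0998, 0.0701 and 0.0752% of counts over PFNU of rats 1 to 4. Without it 4 genes were higher, without BNED of rat 1, 3 or 4 the count was 3, and with total counts it was 2. The 2 falls were called in every alternative.

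Promoters of 1 gene of each direction are shown because the list divided. The letters TTTCNNTTTC, a pair of half-sites bound by interferon regulatory factors, were searched on both strands. They occurred in 6 of 10 list genes with a window and in 4.12% of all genes, again with the motif chosen after the counts had been seen. Of those with a match, Ifit3, Oas1a and Irf7 were not called, and Cxcl9, which rose, had no match. Capitals mark 2 matches in the window of Ifi44, which rose (chr2:243303791-243304090, minus strand), and 1 in that of Rsad2, which fell (chr6:48788071-48788370, minus strand).
Ifi44: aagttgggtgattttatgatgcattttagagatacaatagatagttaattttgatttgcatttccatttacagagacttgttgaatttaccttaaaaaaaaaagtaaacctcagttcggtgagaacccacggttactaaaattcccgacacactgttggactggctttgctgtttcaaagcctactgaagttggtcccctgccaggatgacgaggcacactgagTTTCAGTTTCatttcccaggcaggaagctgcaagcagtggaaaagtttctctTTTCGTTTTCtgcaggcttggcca
Rsad2: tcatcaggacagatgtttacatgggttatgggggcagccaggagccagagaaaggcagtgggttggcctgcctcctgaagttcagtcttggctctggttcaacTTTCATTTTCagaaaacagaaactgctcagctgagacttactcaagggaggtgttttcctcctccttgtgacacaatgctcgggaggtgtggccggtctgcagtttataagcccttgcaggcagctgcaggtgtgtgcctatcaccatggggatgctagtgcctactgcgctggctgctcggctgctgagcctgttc

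None of 8 MHC class II genes, which present antigen, was called by edgeR, DESeq2 or limma-voom, and 0 had an unadjusted p under 0.05, with a median of 0.42; 1 was higher without BNED of rat 3. Cd74, the invariant chain, was at 1595 ± 802 CPM in PFNU and 1447 ± 384 CPM in BNED (SD, n = 4 each). In the adipocyte list 1 of 12 genes rose, the lipase gene Lpl, which muscle also makes (0.84 ± 0.25, adjusted p = 0.0221), with a median of -0.02; its call was lost with total counts and without PFNU of rat 2 or 3 or BNED of rat 1 or 3, and 2 genes were higher without PFNU of rat 4 or BNED of rat 2. Adipoq, the adipocyte hormone, was level at 51.5 against 56.3 CPM. Immediate early genes, which respond to tissue handling and stress, were higher in 3 of 13 cases and lower in 1: Atf3 (1.63 ± 0.30, adjusted p = 0.00139), Jun (1.25 ± 0.28, adjusted p = 0.00409) and Nr4a1 (1.63 ± 0.53, adjusted p = 0.0299) rose and Btg2 fell (-1.45 ± 0.32, adjusted p = 0.00396), whereas Fos (25.8 against 25.0 CPM) and Egr1 (35.3 against 36.4 CPM) did not pass. Nr4a1 was lost with a block for rat (adjusted p = 0.0594). Of skin genes, Krt5, Krt14 and Krt15 had at most 4 counts in any library, and 1 of 5 tested genes fell, Cdh1, a cadherin of epithelia and of erythroid precursors: 5.82, 3.91, 4.32 and 4.90 CPM in PFNU of rats 1 to 4 and 52.6, 41.3, 39.5 and 40.9 CPM in BNED (-3.20 ± 0.52 on the log2 scale, adjusted p = 0.000588).

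The same contrast in the limb with the spacer, induced membrane minus bone beside the spacer, uses other tissues of the same 4 rats and shares no library with the one above. The difference between the contrasts was tested for each gene. None of the 12857 genes passed with edgeR (0%), 1149 (8.94%) had an unadjusted p under 0.05, and DESeq2 called 136 and limma-voom 218, so the count depends on the tool. The medians in the spacer limb were -5.46 for erythroid, -5.14 for neutrophil and -4.91 for B cell genes, beside -4.54, -4.73 and -3.76 here. That of the eosinophil and mast cell list was -3.50 beside -2.84. The list medians were -2.58 beside -4.08 for megakaryocyte, -0.86 beside -1.37 for marrow niche and -1.94 beside -2.71 for cell cycle genes. Of these lists, 2 of 9, 0 of 8 and 0 of 23 genes had an unadjusted p under 0.05 for the difference. DESeq2 and limma-voom called none of them. Taken gene by gene, the median difference of the marrow niche list was 0.05. Alas2 stood at 10.2 ± 5.46 CPM in induced membrane and 332 ± 446 CPM in bone beside the spacer (SD, n = 4 each), a log2 fold change of -5.03 beside -4.50, with a difference of 0.53 ± 1.10 (SE), adjusted p = 0.92. Of the 18 erythroid and 18 neutrophil genes 0 and 2 had an unadjusted p under 0.05 for the difference, and none was called by DESeq2 or limma-voom. Of the 20 B cell genes 9 had one, DESeq2 called 3 and limma-voom 2. The median of the slow muscle list was -3.29 in the spacer limb against 0.44 here, and 8 of its 10 genes had an unadjusted p under 0.05 for the difference, while DESeq2 called 5 and limma-voom 3 of the 10. Myh7 was at 6.75 ± 2.56 CPM in induced membrane and 861 ± 759 CPM in bone beside the spacer (SD, n = 4 each), and its difference of 7.39 ± 1.30 (SE), adjusted p = 0.127 missed the threshold. The fast list had medians of 5.96 and 3.12, and 8 of 12 genes had an unadjusted p under 0.05, with 2 called by DESeq2 and 0 by limma-voom. The shared muscle and muscle regeneration lists had 1 of 11 and 1 of 10 such genes, and neither tool called any. Myh4 was at 24590.2 ± 22590.2 CPM in induced membrane and 59.1 ± 38.2 CPM in bone beside the spacer (SD, n = 4 each), with a difference of -4.26 ± 1.20 (SE), adjusted p = 0.263. For Acta2 (1.64 beside 2.83; difference 1.19 ± 0.50 (SE), adjusted p = 0.508), Cdh5 (1.23 beside 1.68; difference 0.45 ± 0.32 (SE), adjusted p = 0.715), Eln (2.40 beside 2.77; difference 0.37 ± 0.75 (SE), adjusted p = 0.916) and Bglap (-3.02 beside -2.71; difference 0.31 ± 1.17 (SE), adjusted p = 0.962) the sign was the same in both limbs and the difference did not pass. In their lists the genes with an unadjusted p under 0.05 were 9 of 18 endothelial genes (2 called by DESeq2 and 4 by limma-voom) and 4 of 12 smooth muscle genes (0 and 3), beside 1 of 14 elastic fibre and 0 of 15 osteoblast genes (0 by either tool). Some list medians changed sign: they were -0.43 beside 0.82 for inflammatory genes, -0.15 beside 0.39 for Wnt and -0.15 beside 0.61 for angiogenic genes. The adipocyte list had 0.59 beside -0.02, and fibrous matrix genes kept the sign with 0.48 beside 1.19. An unadjusted p under 0.05 was found for 5 of 21 inflammatory, 4 of 22 Wnt, 4 of 15 angiogenic, 2 of 15 fibrous matrix and 0 of 12 adipocyte genes. It was also found for 5 of 17 macrophage and 5 of 13 BMP antagonist genes. Their medians were 1.28 beside 0.14 and 0.40 beside 0.26. Of the macrophage genes DESeq2 called 2 and limma-voom 1, and of the BMP antagonists each called 1. A p that misses the threshold does not show that the limbs are alike.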

How the data were processed

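Polyadenylated RNA of 16 tissue pieces was sequenced as stranded paired reads, per the labels' protocols. The values used are the deposited raw counts per gene, made by the authors; per the submitters' processing notes FastQC 0.11.3, TopHat2 2.0.13, Bowtie2 2.2.1, DESeq2 and the rat build rn5 were used, while the counter, annotation and strand setting are not given in the sources used here, so overlapping antisense genes and near-identical copies are uncertain. The table holds 14476 genes by symbol, and no coordinates of it are given.

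Counts were normalised with TMM and fitted with edgeR 4.0.16 (R 4.3.3) as group means of all 16 libraries, which share 1 estimate of the spread; filterByExpr kept 12857 genes, and quasi-likelihood F-tests were adjusted by Benjamini and Hochberg over all of them, called under 0.05. The SE is the log2 fold change divided by the square root of F. The procedure was tested on simulated counts. Replicates of a group differed beyond counting noise in every pair (log2 CPM r 0.939 to 0.983). Libraries are paired by rat in the labels; deviations from the group means of the 2 libraries of rats 1 to 4 correlated at -0.12, 0.26, 0.36 and -0.28. Pairs of different rats ran from -0.44 (PFNU of rat 3 with BNED of rat 2) to 0.37 (PFNU of rat 3 with BNED of rat 4), so same-rat libraries did not stand out. A block for rat is an alternative, beside RLE factors, total counts, TMM factors without muscle and erythroid genes, no filter, DESeq2 1.42.0, limma-voom (limma 3.58.1), the 8 libraries alone and leaving out each library; leaving out PFNU of rat 3 and BNED of rat 2 together was added after seeing the data.

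The 39 gene lists (596 genes, 542 in the table), the comparison and the panel were chosen with earlier results of these data known. Genes were named by a rule: the 10 called genes furthest up and the 10 furthest down with at least 10 CPM in the higher group and no overlap, up to 4 called members of smallest p in each list, and the panel whatever its result. Further list members given in the text illustrate their list, and genes outside these sets were named after their values were seen. Counts measured in whole libraries cover counting error and the spread between 4 rats only. Some members of the lists are counted but not reported here by name.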

Additional observations from a re-analysis of the deposited data

Results flagged for a closer look

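In groups of 4 libraries, a library was picked out when its gap to the nearest of the other 3 exceeded Dixon's 95% critical share of the group's range. This was checked in 306 groups, PFNU and BNED for each named gene, and 25 met it, where chance gives about 1 in 20 groups.

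Of the PFNU libraries, that of rat 1 stood high in Cxcl9 (188 CPM), Cxcl10 (173 CPM), Cxcl11 (81.0 CPM) and Ubd (91.9 CPM), all of which interferon-gamma induces, and in Sfrp4 (329 CPM), Mfap2 (56.3 CPM), Dpp4 (37.1 CPM) and Mcm2 (30.5 CPM). PFNU of rat 2 stood high in Col2a1 (109 CPM) and Prg3 (0.467 CPM, 24 counts) and low in Pdgfb (39.2 CPM), and PFNU of rat 4 stood high in Myh7 (3031 CPM) and Tpsb2 (31.2 CPM).

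Of the BNED libraries, that of rat 4 stood high in 4 genes that cartilage or tendon express, Col2a1 (5149 CPM), Hapln1 (172 CPM), Ihh (8.53 CPM) and Fmod (382 CPM). BNED of rat 2 stood high in Acta2 (90.2 CPM), Chrna1 (39.5 CPM) and Chrd (14.9 CPM). BNED of rat 3 stood high in Sp7 (45.2 CPM) and low in Alas2 (565 CPM) and Trim10 (42.4 CPM), and BNED of rat 1 stood high in Cdh1 (52.6 CPM) and Gfi1 (32.2 CPM).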

How the results depend on the processing

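Of 3884 called genes, 2274 (58.5%) were called whichever single library was left out, when the total ran from 2637 to 3981, the higher genes from 1163 to 1997 and the lower genes from 1425 to 1984; the higher genes numbered 1262 without PFNU of rat 2, 1163 without BNED of rat 1 and 1181 without BNED of rat 3. Limma-voom called 6720 genes (3438 higher, 3282 lower), total counts gave 1092 higher genes, and the fit of the 8 libraries alone gave 2940 lower ones. With the replicate block for rat 3734 genes were called, 3493 of them also called without it. For the difference between limbs, DESeq2 called 136 genes, limma-voom 218, and the fits without 1 library 0 to 2 (2 without PFNU of rat 1). Of 142 called named genes, 112 were called whichever single library was left out. The block ended the call of 7 of them and made 3 of 11 uncalled ones pass. Signs turned for 2 uncalled genes: leaving out single libraries moved Cd68 between -0.39 and 0.16, with 0.16 without PFNU of rat 2, 0.14 without PFNU of rat 4 and 0.13 without BNED of rat 4, and Myh7 between -0.55 (without PFNU of rat 4) and 1.41. The causes were not tested. Depth limits the fold changes of genes near 0 in PFNU, such as Prtn3 (0 to 0.292 CPM) and Prg3 (0 to 0.467 CPM).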

Other observations

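The genes below were chosen after their values were seen, apart from Ubd, Cxcl11, C4b and Stmn2, which are among the 10 largest rises. H19, an imprinted non-coding RNA of embryonic tissues and muscle, took 1.16% of the counts of PFNU on average and measured 8613, 17598, 5817 and 18509 CPM in PFNU of rats 1 to 4 and 1659, 2870.5, 402 and 439 CPM in BNED (3.23 ± 0.90 on the log2 scale, adjusted p = 0.0146). It was highest in PFNU of rats 2 and 4, as was Myh4, and Igf2, its neighbour at the imprinted locus, was highest in the same 2 libraries.

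Complement was unequal. C4b, a component of the classical pathway, measured 324, 105, 50.2 and 55.9 CPM in PFNU of rats 1 to 4 and 7.25, 11, 3.92 and 7.30 CPM in BNED (4.18 ± 0.68 on the log2 scale, adjusted p = 0.000588), while C3 (46.5 against 64.5 CPM) and C1qa (203 against 191 CPM) were not called. In the spacer limb C4b was at 222 ± 155 CPM in induced membrane and 10.3 ± 4.36 CPM in bone beside the spacer (SD, n = 4 each), so both defect tissues held more of it than the bone of their own limb.

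Ubd, which codes for a ubiquitin-like protein induced by interferon-gamma and tumour necrosis factor, was the gene with the largest rise that met the rule for naming: 91.9, 4.60, 5.40 and 10.5 CPM in PFNU of rats 1 to 4 and 0.571, 0.176, 1.27 and 0.656 CPM in BNED (5.41 ± 1.21 on the log2 scale, adjusted p = 0.00423). PFNU of rat 1 was highest by far, and every other PFNU library also lay above every BNED library. Cxcl11 had the same shape at 81.0, 6.25, 4.44 and 8.71 CPM in PFNU of rats 1 to 4 and 0.225, 0.481, 0.789 and 1.64 CPM in BNED (5.02 ± 1.20 on the log2 scale, adjusted p = 0.00665).

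Some rises lay outside the tissues the lists describe. Stmn2, a microtubule protein of growing nerve fibres, measured 46.2, 31.8, 91.1 and 18.5 CPM in PFNU of rats 1 to 4 and 1.56, 5.02, 1.44 and 2.95 CPM in BNED (4.09 ± 0.64 on the log2 scale, adjusted p = 0.000463), with PFNU of rat 3 highest. Msln, a surface protein of mesothelium and of some fibroblasts, measured 21.8, 15.9, 19.6 and 6.16 CPM in PFNU of rats 1 to 4 and 0.398, 1.42, 0.607 and 2.56 CPM in BNED (3.68 ± 0.75 on the log2 scale, adjusted p = 0.00239), and Aldh1a2, which makes retinoic acid, 13.4, 15.9, 5.42 and 9.94 CPM in PFNU of rats 1 to 4 and 1.12, 1.98, 0.101 and 0.634 CPM in BNED (3.51 ± 0.80 on the log2 scale, adjusted p = 0.00484). The receptor gene Ntrk3 (16.2, 11.5, 7.77 and 10.1 CPM in PFNU of rats 1 to 4 and 1.31, 1.69, 0.971 and 0.787 CPM in BNED; 3.25 ± 0.44 on the log2 scale, adjusted p = 0.000218) and the laminin receptor gene Itgb4 (142, 73.2, 118 and 92.0 CPM in PFNU of rats 1 to 4 and 10, 20.0, 7.78 and 7.09 CPM in BNED; 3.24 ± 0.48 on the log2 scale, adjusted p = 0.000356) rose in all 4 rats. Adamts15, a matrix protease, measured 199.9, 124, 122 and 73.1 CPM in PFNU of rats 1 to 4 and 10, 21.0, 10.7 and 12.9 CPM in BNED (3.24 ± 0.51 on the log2 scale, adjusted p = 0.000463). Of the falls, Lgals5, a galectin of rat red cell precursors, measured 1.36, 8.49, 2.10 and 5.23 CPM in PFNU of rats 1 to 4 and 196, 172, 113 and 87.5 CPM in BNED (-5.05 ± 1.02 on the log2 scale, adjusted p = 0.00227).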
